A study of Mus musculus with 50 samples.

Results

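A set of 9 genes was followed through every RNA and open chromatin library of a study of mouse spinal motor neuron maturation: the estrogen-related receptors Esrra, Esrrb and Esrrg, their coactivator gene Ppargc1a, the thyroid hormone receptors Thra and Thrb, the ROR receptors Rora and Rorb, and the retinoid X receptor Rxrg. They were taken by symbol from the gene tables, 9 of 55385 genes. All 9 were found once in each of the 28 RNA libraries, and their levels are given as normalised counts, which are expected read counts divided by a size factor per library.

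RNA-seq covered 11 groups. Motor neurons of E10.5 embryos (3 libraries) were whole GFP-positive cells sorted from the C57BL/6- HB9-GFP strain, in which the HB9 promoter drives GFP, while E13.5 (2), P4 (3), P13 (2), P21 (3), P56 (3) and 2yr (2) libraries came from nuclei of Chat-Cre;SUN1-GFP mice, so age and RNA source cannot be told apart between E10.5 and E13.5. Chat-Cre marks all cholinergic neurons, not motor neurons alone. The study also cites a report that it labels many GABAergic and glutamatergic neurons of the adult cord. By the study's deconvolution of its P56 RNA, most came from skeletal motor neurons, some from visceral motor neurons and very little from non-cholinergic cells. Each in vivo replicate pooled several animals or embryos. For culture, an embryonic stem cell line with the same Chat-Cre and SUN1-GFP alleles was differentiated into motor neurons, sampled as nuclei before co-culture (DIV0, 2 libraries), and after growth on cortical astrocytes of P2 mice for 7 (DIV7, 2) or 28 days (DIV28, 3). A further 3 DIV28 cultures grew throughout in tetrodotoxin (TTX, 1 µM), a blocker of voltage-gated sodium channels. ATAC-seq, which maps open chromatin by transposase cutting, had 2 libraries in each of the same 11 groups. Tissue RNA from E13.5 on came from nuclei captured on beads, from brachial and lumbar cord. Tissue ATAC-seq used sorted nuclei (sorted whole cells at E10.5), with thoracic cord included. Thoracic cord also entered the E10.5 RNA, so cord segments differ too between E10.5 and E13.5 RNA.

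Library totals ranged from 2704682 to 21823500 counts, with a median of 4292675. The library titled DIV0 replicate 3 was used as DIV28 replicate 3, since the study lists 2 DIV0 and 3 DIV28 RNA libraries. Its log2 counts correlated, over genes, at 0.928 and 0.929 with the other DIV28 libraries and at 0.637 and 0.636 with those of DIV0. With DIV28 TTX replicates 1, 2 and 3 the values were 0.897, 0.883 and 0.955. The correlations thus set it apart from DIV0 but not from cultures with TTX. Where leaving it out changed the call of a member that value is given too. Motor neuron markers (6 of 6 detected in every group) summed to 3448 to 4009 normalised counts at P21 and 5342 to 9264 at DIV28. RNA of other cells was present as well. All 5 endothelial markers were detected at E13.5, summing to 8547 to 15324, against 3887 to 5316 at P4 and 29.4 to 61.9 at P21, and the 5 erythroid markers summed to 4111 to 4341 at E13.5 and 105 to 193 at P21. The 6 oligodendrocyte markers summed to 241 to 251 at E13.5 with Mog at 0, to 11394 to 11466 at P13, 6307 to 8546 at P21 and 2195 to 3319 at P56, and the 3 progenitor markers summed to 3713 to 7029.8 at E13.5 and 23.8 to 63.3 at P21. In bulk RNA, fewer cells of a type and less RNA per cell cannot be told apart.

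All but one of the members encode nuclear receptors, proteins that bind DNA through zinc fingers and recruit coactivators or corepressors to nearby genes. The thyroid hormone receptors bind triiodothyronine and act largely as heterodimers with retinoid X receptors, repressing many targets when hormone is absent, and thyroid hormone sets the pace of much of postnatal brain development. The estrogen-related receptors have no known natural hormone that they need, and with PGC-1alpha, the product of Ppargc1a, they drive genes of mitochondrial respiration, while the ROR receptors bind single copies of the core hexamer and oppose the REV-ERB repressors in the circadian clock. Among motor neurons, Esrrg is known as a marker of the gamma type, which innervates muscle spindles.

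The genes lie in mm10 as follows, with Esrra at chr19:6910977-6921813 (minus strand), Esrrb at chr12:86361117-86521628 (plus strand), Esrrg at chr1:187608791-188214885 (plus strand), Ppargc1a at chr5:51454250-51567726 (minus strand), Thra at chr11:98740638-98769006 (plus strand), Thrb at chr14:17660261-18038090 (plus strand), Rora at chr9:68653786-69388246 (plus strand), Rorb at chr19:18930605-19111196 (minus strand) and Rxrg at chr1:167598384-167639623 (plus strand).

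In vivo, most called changes of the set fell between E13.5 and P4. A gene was called when it differed by 2-fold or more with an unadjusted p below 0.001, the limits that the study used. By this rule 6 of 9 members were higher at P4 than at E13.5 and none lower, where 23.8% of 15030 genes tested were called higher and 19% lower, and their median log2 fold change was 1.97 against 0.12 over all genes tested. From P4 to P13 only Thrb was called, with 13.3% of all genes called. No member was called from P13 to P21 (7.3% of all genes), from P21 to P56 (0.173%) or from P56 to 2yr (0.685%), so the levels reached in the first postnatal weeks showed no called change through 2 years. In these 3 comparisons DESeq2 also called 0, and the members with an unadjusted p under 0.05 in edgeR's test were 1 (Rxrg), 0 and 0. Over the whole nuclear span, from E13.5 to P21, 5 of 9 were called higher and 0 lower, with 29.8% and 26.3% of all genes.

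**Figure D1:**
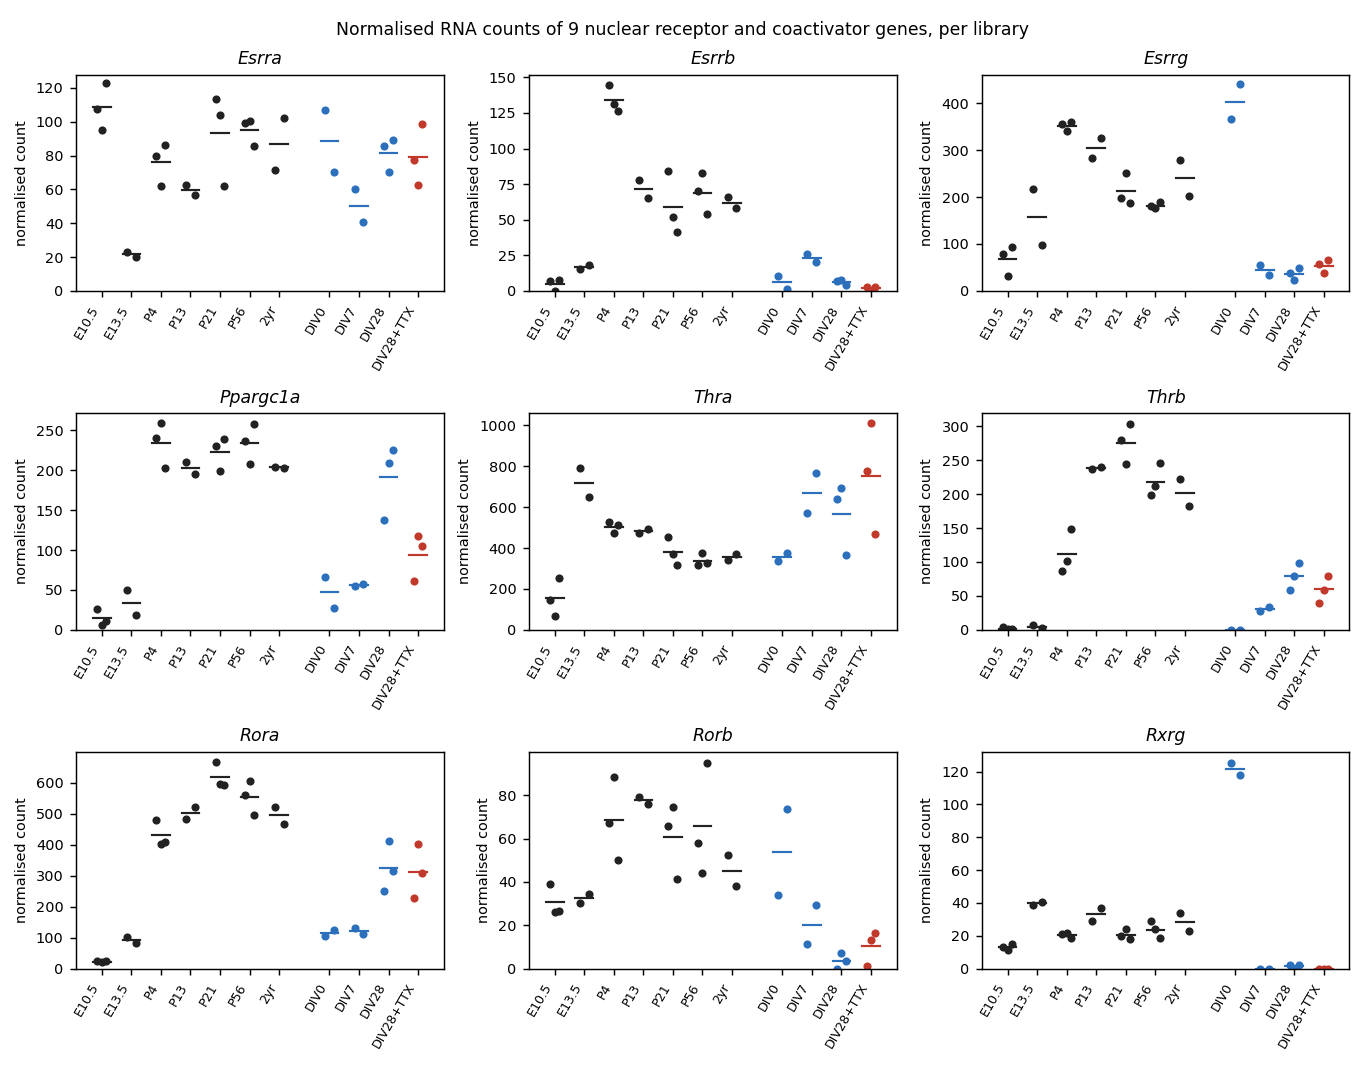
Normalised RNA counts (vertical axes, linear from 0) of the 9 genes in each of the 28 libraries (points), with the mean of each group as a horizontal line; in vivo ages are black, cultures blue and cultures with TTX red. Thrb, Rora and Ppargc1a are low at E10.5 and E13.5 and high from P4 on, while Esrrg and Rxrg are highest in the 2 DIV0 libraries.

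Thrb, which encodes the hormone-binding receptor beta that the brain acquires late, had the largest change of the set from E13.5 to P21. It was counted 3.82, 0.691 and 0.763 times (normalised) in the E10.5 libraries and 6.46 and 2.14 at E13.5, then 86.4, 102 and 148 at P4, 237 and 239.5 at P13, 279.7, 245 and 304 at P21, 198, 212 and 245 at P56 and 222 and 182 at 2yr. The E13.5 values rest on 7 and 5 reads, and no E13.5 library overlapped any later one. Thrb rose from E13.5 to P4 (log2 fold change 5.05, SE 0.40, adjusted p = 1.2e-08) and from E13.5 to P21 (log2 fold change 6.35, SE 0.39, adjusted p = 1.8e-10). From mean TPM, which divides by transcript length, the log2 change of Thrb from E13.5 to P21 was 4.29, against 6.00 from mean normalised counts. The step from P4 to P13 was called (log2 fold change 1.18, SE 0.25, adjusted p = 0.0014) but held in 1 of 5 fits that left out 1 library. It was lost without P4 replicate 1, P4 replicate 2, P13 replicate 1 or P13 replicate 2, at log2 fold changes of 1.02, 1.11, 1.16 and 1.19 in turn. Across P13, P21, P56 and 2yr, group means of Thrb stayed between 202 and 276. The oligodendrocyte markers summed to 11394 to 11466 at P13 and 1585 to 1679.9 at 2yr, and their part in the Thrb levels was not tested here. The study itself reported the postnatal rise of Thrb and checked it against in situ hybridization images of the Allen Institute.

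Thra, the receptor alpha gene that is expressed early and broadly, was highest in vivo at E13.5. Its counts were 146, 68.4 and 253 at E10.5, 790.5 and 647 at E13.5, 527, 474 and 513 at P4, 472 and 492 at P13, 456, 371 and 319 at P21, 316, 374 and 325 at P56 and 340.1 and 371 at 2yr. E13.5 held the 2 highest in vivo values and E10.5 the 3 lowest. Thra rose from E10.5 to E13.5 (log2 fold change 2.04, SE 0.32, adjusted p = 1.9e-05), a call that was lost when only those 2 groups were fitted, and its later difference from E13.5 to P21 was not called (log2 fold change -0.76, SE 0.31, adjusted p = 0.035). The 3′ end of Thra overlaps Nr1d1 on the other strand, and the counting used no strand setting, so reads of the shared part cannot be told apart. Nr1d1 reads came to 8.03% of the Thra reads over all libraries.

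The balance between the receptor genes was read per transcript length, as each gene's share of the summed TPM of its family in a library, where TPM is a read abundance divided by transcript length. Thrb made up 0.857% of Thra and Thrb TPM at E10.5 and 17.6% ± 5.8 (SD, n = 3) at P4. The share was 37.9% at P13, 40.5% ± 7.63 (SD, n = 3) at P21 and 32.7% ± 4.69 (SD, n = 2) at 2yr. The E13.5 share of 1.3% rests on those few reads and on how they were split between transcripts. Thrb thus went from a trace of thyroid receptor TPM in the embryo to the shares above after birth.

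The Thrb promoter was open at every age, the embryo included, where few reads of the gene were found. Its first start site (chromosome 14, plus strand) had an ATAC peak within 2000 bp among the 80386 highest peaks of each of the 22 libraries. The fold enrichment over the library's background, as MACS2 gives it at the summit, was 8.51 and 11.9 at E10.5, 18.1 and 13.7 at E13.5, 9.06 and 10.6 at P21, 16.4 and 13.6 at DIV0 and 10.6 and 8.99 at DIV28. The DIV0 cultures thus had the peak with 0 Thrb reads in both RNA libraries. The promoter sequence is given because it carries 1 copy of AGGTCA, the core hexamer that the receptors of these families share, at 184 bases before the start. It covers chr14:17660710-17661009 of mm10 (GRCm38.p6), plus strand, from RefSeq, with the hexamer in capitals.
Thrb promoter: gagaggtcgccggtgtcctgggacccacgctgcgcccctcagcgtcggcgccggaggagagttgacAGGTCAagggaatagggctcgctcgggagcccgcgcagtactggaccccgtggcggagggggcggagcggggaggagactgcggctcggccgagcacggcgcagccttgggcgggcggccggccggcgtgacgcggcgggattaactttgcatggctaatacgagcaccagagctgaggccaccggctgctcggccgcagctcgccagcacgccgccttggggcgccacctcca
AGGTCA, on either strand, was found in 2 of the 15 member promoters matched in RefSeq (8 of 9 genes) and in 16.3% of 32851 promoters of 300 bases. A match describes letters and not a bound site. A second Thrb start had a peak among the 80386 highest in 4 of 22 libraries and a peak of any rank in 17.

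**Figure D2:**
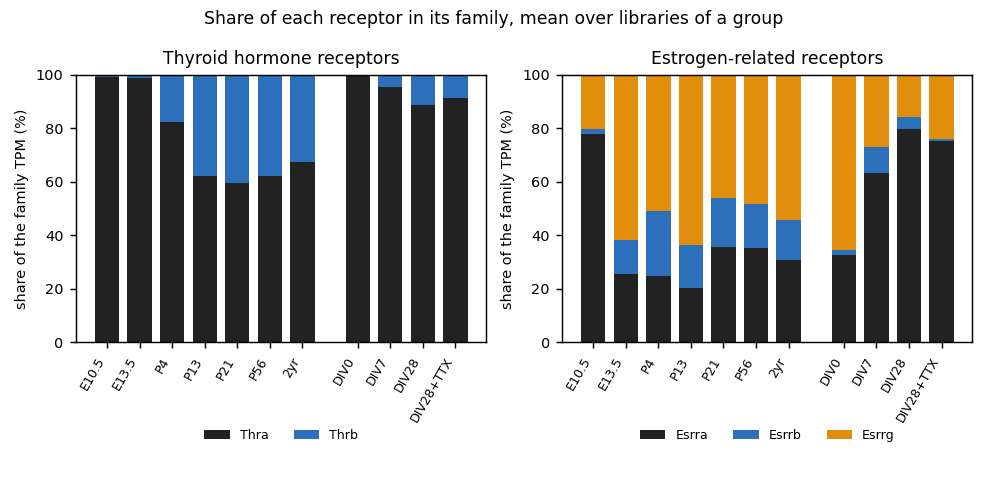
Share of each receptor in the TPM of its family (vertical axes, percent from 0 to 100, mean over the libraries of a group) for thyroid hormone receptors and estrogen-related receptors, with in vivo ages on the left and cultures on the right of each panel. Thrb goes from 0.857% at E10.5 to 40.5% at P21 and from 0 at DIV0 to 11.3% at DIV28, and Esrrg goes from 65.4% at DIV0 to 15.7% at DIV28.

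Rora, the ROR receptor whose loss causes the staggerer ataxia of mice, rose in each of the first 2 steps. Its counts were 23.7, 21.4 and 23.6 at E10.5, 103 and 83.7 at E13.5, 479, 401 and 409 at P4, 483 and 521 at P13, 666, 596 and 594 at P21, 561, 605 and 496 at P56 and 523 and 467 at 2yr. Neither E10.5 and E13.5 nor E13.5 and P4 overlapped. It rose from E10.5 to E13.5 (log2 fold change 1.86, SE 0.17, adjusted p = 3.7e-08) and from E13.5 to P4 (log2 fold change 2.36, SE 0.16, adjusted p = 1.9e-09), and both calls held in all 10 alternative fits, as did the rise from E13.5 to P21 (log2 fold change 2.89, SE 0.16, adjusted p = 5e-11).

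Rorb, which marks layer IV neurons of the cortex, was called in no step in vivo. It was 38.9, 26.3 and 26.7 at E10.5, 30.5 and 34.3 at E13.5, 67.3, 88.4 and 49.9 at P4, 65.7, 74.5 and 41.4 at P21 and 52.4 and 38 at 2yr. The E13.5 libraries lay below all P4 and P21 libraries, but neither difference was called (to P4, log2 fold change 1.22, SE 0.34, adjusted p = 0.0038).

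Among the estrogen-related receptors, each gene had its own time course. Esrrg was 79.4, 31.1 and 93.1 at E10.5, 217 and 97 at E13.5, 356, 342 and 359 at P4, 283 and 327 at P13, 197, 252 and 188 at P21, 180.2, 177 and 189 at P56 and 278 and 202 at 2yr, highest at P4. Its call from E13.5 to P4 (log2 fold change 1.34, SE 0.34, adjusted p = 0.002) was fragile, since it held in 3 of 10 alternatives. It was lost with median-of-ratios factors (log2 fold change 1.23), with the 2 groups fitted alone (1.27), and without E13.5 replicate 2 (0.86) or without P4 replicate 1, 2 or 3 (1.33, 1.36 and 1.32). From E13.5 to P21 Esrrg was not called (log2 fold change 0.61, SE 0.34, adjusted p = 0.1), and those groups overlapped. A gene model on the same strand, Gm38315, overlaps Esrrg and held reads equal to 28% of its own, so the split between them is uncertain.

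Esrrb was 6.87, 0 and 7.63 at E10.5, 15.7 and 18.4 at E13.5, 145, 131 and 126 at P4, 77.7 and 65 at P13, 83.9, 52 and 41.4 at P21, 70.2, 83 and 54.1 at P56 and 65.9 and 58.3 at 2yr. The 3 P4 libraries stood above all others of the series. Esrrb rose from E13.5 to P4 (log2 fold change 3.09, SE 0.44, adjusted p = 7.7e-06). By P21 the rise over E13.5 was still called (log2 fold change 1.92, SE 0.44, adjusted p = 0.00077), though not without E13.5 replicate 1 (log2 fold change 1.84), E13.5 replicate 2 (2.07) or P21 replicate 1 (1.57), nor with only the compared groups fitted (1.76), where the p limit was missed.

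Esrra, the most widely expressed of the family, dipped at E13.5. Its counts were 108, 95.4 and 123 at E10.5, 23.1 and 20.2 at E13.5, 79.7, 62.2 and 86.1 at P4, 62.8 and 56.6 at P13, 113, 104 and 62.2 at P21, 99, 100.5 and 85.8 at P56 and 71.3 and 102 at 2yr. It fell from E10.5 whole cells to E13.5 nuclei (log2 fold change -2.49, SE 0.29, adjusted p = 6.2e-07) and rose from there to P21 (log2 fold change 2.27, SE 0.29, adjusted p = 1.6e-06). Esrra overlaps Trmt112 on the other strand, whose reads came to 79.2% of those of Esrra, and reads of their shared part cannot be told apart. In family TPM, Esrra took 77.9% at E10.5 and 35.8% at P21, Esrrg 61.7% at E13.5 and 50.9% at P4, and Esrrb reached 24.4% ± 4.93 (SD, n = 3) at P4.

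Ppargc1a, the coactivator gene, went from 26, 6.22 and 11.4 at E10.5 and 49.9 and 18 at E13.5 to 240.1, 259 and 203 at P4, 211 and 196 at P13, 231, 199.7 and 239 at P21, 237, 208 and 259 at P56 and 204 and 203 at 2yr. All postnatal libraries lay above all embryonic ones and within 196 to 259. Ppargc1a rose from E13.5 to P4 (log2 fold change 3.04, SE 0.38, adjusted p = 2.1e-06), and the call held in all 10 alternatives, as did that to P21 (log2 fold change 2.97, SE 0.38, adjusted p = 1.5e-06). The same-strand gene models Gm43605, Gm42614 and Gm42615 overlap it, with reads equal to 14.1%, 10% and 5.27% of its own. Its relative Ppargc1b rose as well, from 63.1 ± 1.75 (SD, n = 2) at E13.5 to 223 ± 40.4 (SD, n = 3) at P21 (log2 fold change 1.97, adjusted p = 3.5e-07).

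Rxrg, which encodes the retinoid X receptor of narrowest distribution, was 13, 11.1 and 15.3 at E10.5, 38.8 and 40.8 at E13.5, 21.3, 21.8 and 18.7 at P4, 28.8 and 37.1 at P13, 19.6, 23.9 and 18 at P21, 28.9, 24.1 and 18.5 at P56 and 33.6 and 22.9 at 2yr. The E13.5 libraries were the highest in vivo. The rise from E10.5 to E13.5 was called (log2 fold change 1.45, SE 0.29, adjusted p = 0.00026), but not with those groups fitted alone (log2 fold change 1.54) or without E13.5 replicate 2 (1.4), and no later step was called. From E10.5 to E13.5, 3 members were called higher (Thra, Rora, Rxrg) and 1 lower (Esrra), where 24.6% of all genes were called higher and 19.4% lower. The other retinoid X receptor genes, Rxra and Rxrb, fell in that same step from whole cells to nuclei (log2 fold change -2.26, adjusted p = 1.4e-07 and log2 fold change -2.09, adjusted p = 2.9e-07). Neither was called from E13.5 to P21.

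The embryonic comparisons coincided with changes in the other cells in the samples. From E13.5 to P21, all 5 endothelial and all 4 tested erythroid markers were called lower, 6 of 6 oligodendrocyte markers higher, and 3 of 5 interneuron markers higher. Of the 6 astrocyte markers, 3 were called higher and 2 lower. From E13.5 to P4, 3 of 5 endothelial and 3 of 4 tested erythroid markers were called lower. In that step 6 of 6 oligodendrocyte, 4 of 5 interneuron and 3 of 6 astrocyte markers were called higher, and 1 astrocyte marker lower. Astrocyte markers summed to 964 to 1148 at E13.5, 2769 to 3515 at P4 and 1284 to 1655 at P21. Interneuron markers summed to 126 to 193 at E13.5 and 584 to 905 at P4. The part of all these other cells in the members' changes was not tested. Between P21 and P56 the oligodendrocyte sum went from the range of 6307 to 8546 to that of 2195 to 3319. In that comparison 0 of 9 members were called, where 0.173% of all genes were. Whether oligodendrocyte RNA entered the members' levels was not tested. The largest member difference there was that of Thrb, whose libraries at P21 and P56 overlapped.

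In culture, members moved in both directions. From DIV0 to DIV28, 3 of 8 tested members were called higher (Ppargc1a, Thrb, Rora) and 2 lower (Esrrg, Rxrg), where 11.5% of 12890 genes tested were called higher and 7.45% lower. Esrrb did not pass the filter of at least 5 CPM in every library of 1 group and was not tested. Rxrg and Rorb passed it through DIV0 alone, and Thrb only through later groups. For these genes the filter fixed the direction that a call against DIV0 could take. From DIV0 to DIV7, Thrb was called higher and Esrrg and Rxrg lower (8.36% and 2.81% of all genes), and from DIV7 to DIV28 only Rora was called, higher (3.62% of all genes were called higher and 4.09% lower). Interneuron markers summed to 13.1 to 16.8 at DIV0, with Slc32a1 at 0, and to 377 to 623 at DIV28, with 2 of 3 tested called higher, and 3 of 6 motor neuron markers were called lower and 1 higher. Astrocyte markers summed to 376 to 498 at DIV0 and 236 to 717 at DIV28 with 0 of 6 called, and progenitor markers to 584 to 676 and 25.5 to 60.4. The part of these markers in the members' changes was not tested.

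Thrb had 0 counts in both DIV0 libraries and reached 28.1 and 33.2 at DIV7 and 57.9, 79.8 and 99.2 at DIV28. Against a floor of 3 counts over the DIV0 group, it was at least 14.5-fold higher at DIV7 and at least 37.4-fold higher at DIV28, both called (adjusted p = 0.00064 and 5.1e-05). Thra was 337 and 378 at DIV0, 570.1 and 767 at DIV7 and 639.7, 694 and 366 at DIV28, with overlap between DIV0 and DIV28 and no call. The Thrb share of thyroid receptor TPM was 4.52% ± 0.709 (SD, n = 2) at DIV7 and 11.3% ± 4.11 (SD, n = 3) at DIV28, below each P13, P21, P56 and 2yr library.

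Esrrg fell in culture. It was 366 and 440.4 at DIV0, above every other library of the series, and 56.3 and 34.4 at DIV7 and 38.2, 22.6 and 48.1 at DIV28. It fell by 3.16 on the log2 scale from DIV0 to DIV7 (SE 0.44, adjusted p = 0.00046) and by 3.46 from DIV0 to DIV28 (SE 0.38, adjusted p = 3.9e-05). Esrrb was 10.45 and 1.53 at DIV0, 26.3 and 20.4 at DIV7 and 6.95, 7.75 and 4.38 at DIV28, where DIV7 stood above both other times. Esrra was 107 and 70.3, 60.02 and 40.8 and 85.8, 70.4 and 89 at these times and was not called. The family's shares changed, with Esrrg at 65.4% ± 9.06 (SD, n = 2) of TPM at DIV0 and 15.7% ± 5.24 (SD, n = 3) at DIV28, and Esrra at 79.6% ± 3.03 (SD, n = 3) at DIV28. The summed TPM of the family was 8.34 at DIV0 and 2.69 at DIV28, so a larger share of Esrra is not a higher level. The overlap of Esrra with Trmt112 applies to its share too.

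Rxrg was 125 and 118 at DIV0, above every in vivo library, then 0 in both DIV7 libraries and 2.32, 0 and 2.19 at DIV28, where the 3 libraries together held 5 reads. DIV0 was at least 53.4-fold higher than DIV7 against the floor of 3 counts. The DIV7 call (adjusted p = 0.0034) was lost without any 1 of the 4 libraries, for the p limit was then missed, while that to DIV28 (log2 fold change -6.61, SE 0.96, adjusted p = 0.00073) was lost without DIV0 replicate 1 (-6.49). At DIV0 Rxrg held 39.8% ± 0.0525 (SD, n = 2) of the TPM of the 3 retinoid X receptor genes.

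Ppargc1a and Rora rose in culture as they had in vivo. Ppargc1a was 66.6 and 27.5 at DIV0, 54.4 and 57.4 at DIV7 and 138, 209.6 and 225 at DIV28, and its rise from DIV0 to DIV28 (log2 fold change 2.04, SE 0.44, adjusted p = 0.0034) was lost without DIV0 replicate 2 (log2 fold change 1.54), DIV28 replicate 2 (1.95) or DIV28 replicate 3 (1.9), the last being the retitled library. Rora was 106 and 125 at DIV0, 131 and 111 at DIV7 and 249, 411 and 316 at DIV28. Its rise from DIV0 to DIV28 (log2 fold change 1.53, SE 0.32, adjusted p = 0.0028) was lost without DIV0 replicate 1 (1.42), DIV0 replicate 2 (1.65) or DIV28 replicate 2 (1.31), and held without DIV28 replicate 3 (1.55). The rise from DIV7 to DIV28 (log2 fold change 1.45, SE 0.32, adjusted p = 0.01) was lost without DIV7 replicate 1 (1.59), DIV7 replicate 2 (1.35), DIV28 replicate 2 (1.23) or DIV28 replicate 3 (1.48).

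Rorb was 34 and 73.4 at DIV0, 11.3 and 29.3 at DIV7 and 0, 7.11 and 3.65 at DIV28, and all DIV28 libraries lay under both DIV0 libraries. The difference from DIV0 to DIV28 was not called (log2 fold change -3.61, SE 0.94, adjusted p = 0.01). Grouping the retitled library with DIV0, as its title has it, left 0 members called from DIV0 to DIV28.

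**Figure D3:**
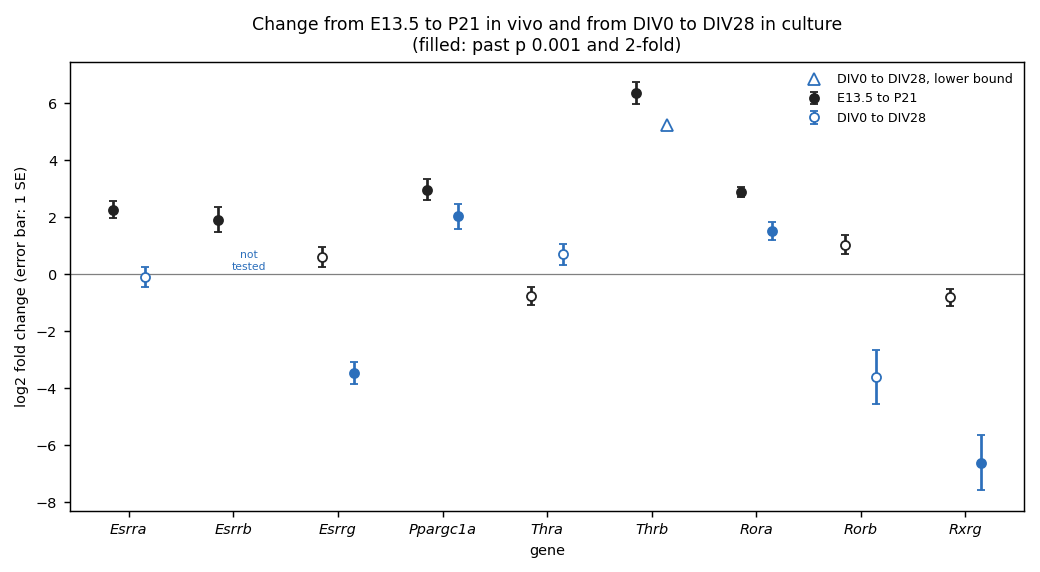
Log2 fold changes (vertical axis, with 1 SE) of each gene from E13.5 to P21 in vivo (black) and from DIV0 to DIV28 in culture (blue), with filled points past p 0.001 and 2-fold; the triangle is the lower bound for Thrb, which had no counts at DIV0. Ppargc1a, Thrb and Rora are higher at the later time in both systems, while Esrrg and Rxrg are lower at DIV28 and show no called change in vivo.

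The question of which of these changes differ between culture and animal was tested directly, as the change from DIV0 to DIV28 minus that from E13.5 to P21 in 1 fit of 25 libraries. The difference was called for 5 of 9 members, all lower in culture (Esrra, Esrrg, Rora, Rorb and Rxrg), where 17.5% of 15521 genes tested were called lower and 24.2% higher. It was largest for Rxrg (log2 difference -5.70, SE 0.73, adjusted p = 1.1e-06), Rorb (-4.32, SE 0.73, adjusted p = 2.6e-05) and Esrrg (-3.90, SE 0.50, adjusted p = 9.3e-07). Esrra differed by -2.17 (SE 0.40, adjusted p = 6.8e-05), with E13.5 holding its lowest level of all groups. The smaller value of Rora (-1.15, SE 0.27, adjusted p = 0.00087) held in 4 of 10 fits without 1 library and was lost without E13.5 replicate 2 (-1.01), P21 replicate 1 (-1.01), DIV0 replicate 1 (-1.18), DIV0 replicate 2 (-0.94), DIV28 replicate 1 (-0.93) or DIV28 replicate 3 (-1.03). Ppargc1a was not called (-0.72, SE 0.55, adjusted p = 0.26). Thra lay in the other direction, higher in culture, and was not called (log2 difference 1.66, SE 0.46, adjusted p = 0.0034). It was called higher with no filter on low counts (1.73), in DESeq2 (1.56), with only the compared groups (1.68), without P21 replicate 1 (1.89), without DIV28 replicate 3 (1.98) and with the retitled library grouped as DIV0 (1.94).

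At the end points, DIV28 cultures lay below P21 nuclei for 5 of 9 members and above for none, where 13.1% of 15521 genes were called lower and 13.3% higher. Esrrb was 59.1 ± 22.1 (SD, n = 3) at P21 and 6.36 ± 1.76 (SD, n = 3) at DIV28 (log2 fold change -3.10, SE 0.48, adjusted p = 1.6e-05), and Esrrg was 212 ± 34.5 (SD, n = 3) and 36.3 ± 12.9 (SD, n = 3) (log2 fold change -2.54, SE 0.34, adjusted p = 2.3e-06). Thrb was 276 ± 29.8 (SD, n = 3) and 79 ± 20.6 (SD, n = 3) (log2 fold change -1.74, SE 0.25, adjusted p = 9.8e-06), Rorb 60.6 ± 17.1 (SD, n = 3) and 3.58 ± 3.55 (SD, n = 3) (log2 fold change -3.64, SE 0.50, adjusted p = 3.9e-06), and Rxrg 20.5 ± 3.07 (SD, n = 3) and 1.5 ± 1.3 (SD, n = 3) (log2 fold change -4.11, SE 0.58, adjusted p = 5.7e-06). All 5 calls held without the retitled library. Esrrb passed the CPM filter of this fit only through postnatal groups, so the filter favoured a call of lower for it. Ppargc1a overlapped between the groups, at 223 ± 20.7 (SD, n = 3) and 191 ± 46.6 (SD, n = 3), as did Esrra, while Rora lay lower at DIV28 in all libraries but under the 2-fold limit (log2 fold change -0.86, SE 0.16, adjusted p = 0.00013). Oligodendrocyte markers summed to 44.3 to 62.7 at DIV28, with Mog, Mag and Mobp at 0, and their part in these differences was not tested.

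At the start of each course, E13.5 nuclei and DIV0 cultures differed at 1 called member. Esrra was higher at DIV0, at 88.7 ± 26 (SD, n = 2) against 21.6 ± 2.07 (SD, n = 2) (log2 fold change 2.03, SE 0.32, adjusted p = 1.2e-05), a call lost when those 2 groups were fitted alone, where 15.1% of all genes were called higher and 24.3% lower. Esrrg and Rxrg were higher at DIV0 in both libraries without reaching the p limit (log2 fold change 1.36, SE 0.37, adjusted p = 0.0031, and log2 fold change 1.58, SE 0.44, adjusted p = 0.0035).

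With TTX no member was called, where 0.683% of 12890 genes were called. Of the 8 tested, 1 had an unadjusted p under 0.05 in edgeR's test without the pair as a block and 0 passed an adjusted p of 0.05, and DESeq2 called 0. With the pair as a block, Ppargc1a and Thra had one and again 0 passed the adjusted limit. The member in both fits was Ppargc1a, whose counts were 138, 209.6 and 225 without and 60.6, 118 and 105 with TTX. Its groups did not overlap, and each treated culture lay below its same-numbered partner grown in parallel, at ratios of 0.439, 0.562 and 0.465 (log2 fold change -1.03, SE 0.35, adjusted p = 0.41). With the pair as a block the estimate was -1.02 (SE 0.33, adjusted p = 0.19).

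Without the block none of the others passed an unadjusted p of 0.05 in edgeR's test. Thrb was 57.9, 79.8 and 99.2 without and 39.9, 59.2 and 79.5 with TTX, lower in 3 of 3 pairs at ratios of 0.689, 0.742 and 0.802. Esrrg was 38.2, 22.6 and 48.1 without and 56.7, 38 and 65.6 with TTX, higher in 3 of 3 pairs, and Thra was 639.7, 694 and 366 and 774, 1011 and 467, also higher in 3 of 3 pairs, at ratios of 1.21, 1.46 and 1.28 (log2 fold change 0.37, SE 0.15, adjusted p = 0.32 with the pair as a block). Rora was 249, 411 and 316 without and 227, 401 and 308 with TTX, at ratios of 0.91, 0.974 and 0.975. Chat, the cholinergic marker, was 532, 370.2 and 357 without and 267, 159 and 103 with TTX, and its part in the Ppargc1a difference was not tested. Chat is 1 of the 6 motor neuron markers, of which 0 were called with TTX. Together the 6 summed to 5342 to 9264 without and 5548 to 9607 with TTX.

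**Figure D4:**
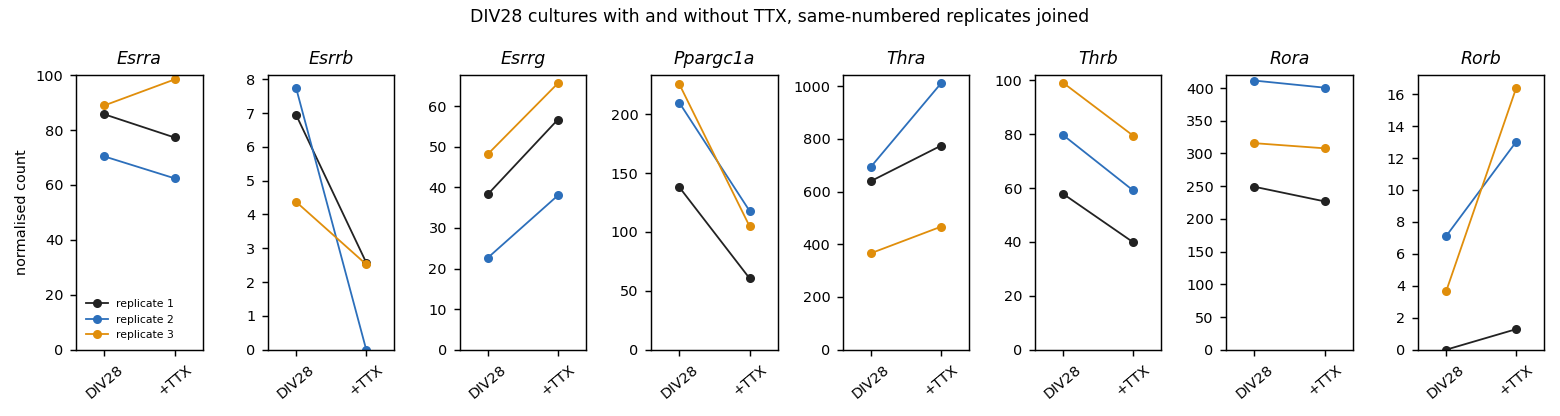
Normalised counts (vertical axes, from 0) of 8 genes in the DIV28 cultures and in the DIV28 cultures with TTX, with lines joining the 3 same-numbered pairs. Ppargc1a is lower with TTX in all 3 pairs, at 0.439, 0.562 and 0.465 of the untreated level, while the ratios of Rora run from 0.91 to 0.975.

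Open chromatin was read from the authors' peaks, which were called in each library separately. Because libraries differ in the number of peaks, the 80386 highest by p were taken from each, and peaks that overlapped between libraries were merged into regions. A total of 409 regions lay in or within 10 kb of the members, of 190876 near 21938 protein-coding genes, with 128 at Rora, 121 at Esrrg, 54 at Thrb, 32 at Esrrb, 23 at Rorb, 20 at Ppargc1a, 14 at Thra, 13 at Rxrg and 4 at Esrra. The first 2 are also the longest of the 9 genes, at 734.5 and 606.1 kb. A start site open in all 22 libraries was found for 8 of 9 members, where 53.9% of protein-coding genes had one, so most of these promoters were open at every age and in every culture. No member lacked a peak at every start in every library, as 20% of genes did, and 15 member regions of any kind (3.67%) were open in all libraries, against 7.05%.

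Rxrg showed the same as Thrb. Its first start had a fold enrichment of 13.8 and 12.1 at DIV0, 8.89 and 11.1 at DIV7 and 16.4 and 7.85 at DIV28 with TTX, and the latter 2 groups had 0 Rxrg reads. Ppargc1a was the exception among the 9. Its distal start had a peak in 11 of 22 libraries, among them both P4, P13, P21 and 2yr libraries, and no peak of any rank at E10.5 or DIV0. At P21 the fold there was 3.84 and 4.19. Its second start had one in 17 libraries, and neither start had one at DIV28, with or without TTX, although Ppargc1a was read at DIV28. Weaker peaks, below the 80386 taken, were in the deposited lists of all 4 of those libraries.

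Peaks across Esrrg and Esrrb were most numerous where culture began. Esrrg had 47 and 36 peaks at DIV0, 20 and 24 at DIV7 and 18 and 21 at DIV28, and Esrrb 20 and 17 at DIV0 and 8 and 7 at DIV28. Of the 409 member regions, 67 (16.4%) were open in both DIV0 libraries and neither DIV28 library, against 10.6% of all regions near genes, and 27 of the 67 lay at Esrrg. The reverse pattern, open at DIV28 and not at DIV0, held for 36 (8.8%), against 11.1%. Regions of 1 gene share a locus and 2 libraries make a group, so these are counts without a test. The cut also set unequal limits, as the lowest −log10 p kept was 4.85 and 2.18 at DIV0 and 23.3 and 7.2 at DIV28. Weaker peaks were thus kept at DIV0 and dropped at DIV28, and the part of this in the counts was not tested. For TTX, 9 regions were open at DIV28 only and 8 with TTX only (2.2% and 1.96%, against 1.87% and 1.47%).

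A region was counted as gained in the adult when it had a peak in all 6 libraries of P21, P56 and 2yr and in none of the 4 of E10.5 and E13.5. There were 12 (2.93% of member regions, against 4.16% of all), 4 each at Esrrg and Rora, 3 at Thrb and 1 at Esrrb, all in introns. Of the 12, 1 was open in both P4 libraries and 10 in both P13 libraries. In culture, 0 were open in both DIV0 libraries, 2 at DIV7, 5 at DIV28 (1.22% of member regions, against 1.38%) and 6 at DIV28 with TTX. By the same cut to the highest peaks, 4 were open in no culture library (0.978%, against 1.81%). These counts depend on that cut. With weaker deposited peaks included, only the Rora region with its summit at chr9:68680186 had no peak in any culture library. Most of the 12, all at Esrrg, Thrb or Rora, then also had a peak in 1 or 2 embryonic libraries. The opposite pattern, open in the embryo and closed in the adult, held for 4 regions (0.978%, against 0.751%), 3 of them at Esrrg.

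**Figure D5:**
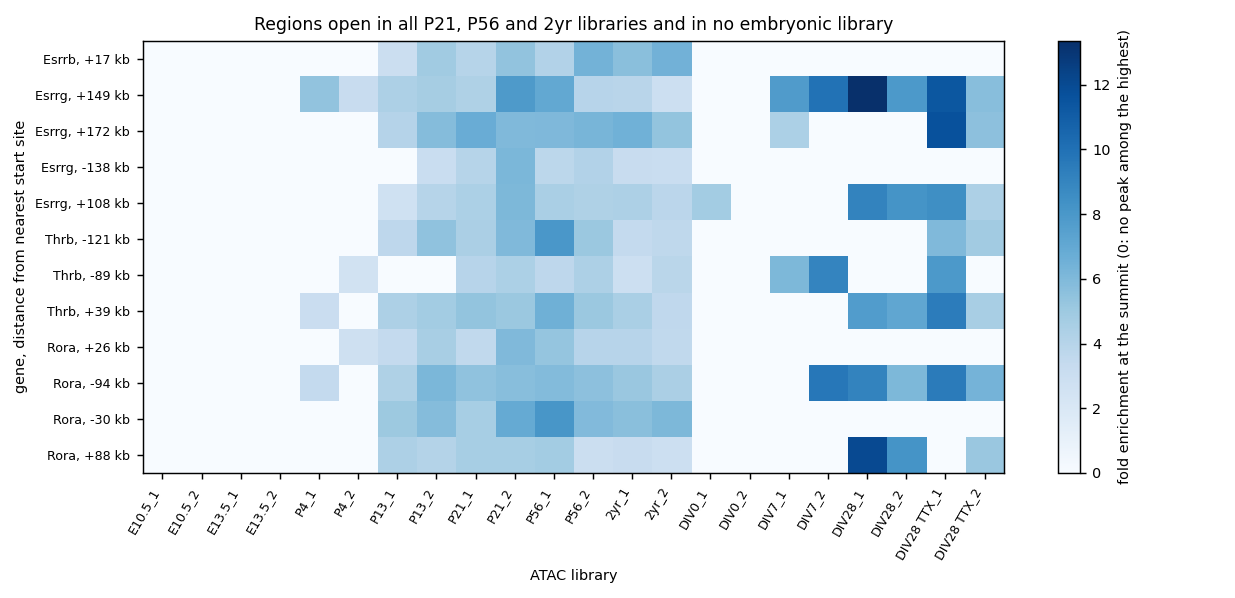
Fold enrichment at the summit (colour, 0 where no peak was among the highest 80386) of the 12 regions gained in the adult, in rows named by gene and distance from the nearest start site, across the 22 ATAC libraries in columns. At P13, 10 of the 12 regions have a peak in both libraries, and 5 of the 12 are open in both DIV28 libraries.

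The 4 gained regions printed here are those with no peak of any rank in an embryonic library at Esrrb, Thrb and Rora, each as 201 bases around the summit, plus strand of mm10. They lie at chr12:86438918-86439118, in an Esrrb intron 17135 bases after the second start, at chr14:17859971-17860171 in Thrb, and at chr9:68680086-68680286 and chr9:69377839-69378039 in Rora. Capitals mark the hexamer AGGTCA, which 1 of the 12 gained regions held.
Esrrb intronic region: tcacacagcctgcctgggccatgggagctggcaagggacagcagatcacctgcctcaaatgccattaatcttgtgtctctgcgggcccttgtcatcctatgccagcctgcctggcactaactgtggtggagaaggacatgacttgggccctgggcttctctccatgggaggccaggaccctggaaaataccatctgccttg
Thrb intronic region: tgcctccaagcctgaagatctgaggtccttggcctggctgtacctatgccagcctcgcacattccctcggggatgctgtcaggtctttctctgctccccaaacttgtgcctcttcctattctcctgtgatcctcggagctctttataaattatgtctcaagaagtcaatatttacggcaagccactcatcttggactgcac
Rora intronic region near the first start: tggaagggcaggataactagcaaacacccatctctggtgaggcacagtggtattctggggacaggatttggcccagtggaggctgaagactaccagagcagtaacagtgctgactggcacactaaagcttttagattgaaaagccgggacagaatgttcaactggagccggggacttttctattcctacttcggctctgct
Rora intronic region after the second start: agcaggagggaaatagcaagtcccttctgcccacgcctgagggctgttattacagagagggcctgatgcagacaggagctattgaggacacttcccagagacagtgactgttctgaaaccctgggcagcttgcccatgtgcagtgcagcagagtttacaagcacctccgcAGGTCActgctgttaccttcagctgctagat
The Esrrb region had folds of 3 and 4.87 at P13, 4 and 5.4 at P21, 4.13 and 6.4 at P56 and 5.68 and 6.44 at 2yr, and no peak among the highest in any culture, where Esrrb also stayed low. The Thrb region was 4.47 and 6 at P21 and 8.02 and 5.08 at P56 and in culture had a peak among the highest at DIV28 with TTX, at 5.95 and 4.81, while 4 culture libraries had a peak of any rank there. Of the Rora regions, the one near the first start (3.54 and 5.96 at P21) had no peak of any rank in culture, and the one after the second start (4.61 and 4.61 at P21) was open at DIV28, at 12 and 8.22.

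The members' own response elements were rare among their regions. TNAAGGTCA, the element that estrogen-related receptors bind as monomers, was in 5 of 409 regions (1.22%) and in 1.22% of all regions near genes, searched on both strands in 201 bases at the summit. A direct repeat of AGGTCA with 4 bases between the copies, the classical thyroid hormone element, was in 0 of 409 and in 0.0157% of all, and the repeat with 1 base between was in 1 region (0.244%, against 0.0912%). The ROR element was in 1 region (0.244%, against 0.303%). The longer elements contain AGGTCA, which was in 16.9% of member regions and 14.8% of all. The 2 regions that hold the repeat and the ROR element are printed with the matches in capitals. The first, in Esrrg (chr1:187665971-187666171), holds the 1-base repeat on the minus strand beside an estrogen-related receptor element, and was open in 1 E10.5 library only. The second, in Ppargc1a (chr5:51478601-51478801), was open in both libraries of E10.5, E13.5 and DIV0, in 1 of P21 and in no other, while Ppargc1a RNA was low in those embryonic and DIV0 libraries.
Esrrg region: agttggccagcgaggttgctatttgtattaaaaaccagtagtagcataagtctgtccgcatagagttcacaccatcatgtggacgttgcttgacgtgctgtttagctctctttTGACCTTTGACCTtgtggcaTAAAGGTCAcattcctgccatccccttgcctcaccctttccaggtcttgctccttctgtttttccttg
Ppargc1a region: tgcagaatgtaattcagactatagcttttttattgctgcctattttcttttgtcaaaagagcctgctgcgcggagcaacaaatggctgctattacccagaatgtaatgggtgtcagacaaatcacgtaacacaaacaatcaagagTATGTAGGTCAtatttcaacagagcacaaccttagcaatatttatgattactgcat

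Genes that work with the members were counted from lists. Their counts stand beside the shares over all genes tested, which were 29.8% higher and 26.3% lower from E13.5 to P21 and 11.5% higher and 7.45% lower from DIV0 to DIV28, and 13.3% higher and 13.1% lower from P21 to DIV28. From E13.5 to P21, thyroid hormone responsive genes had 3 of 7 called higher and 2 lower, with a median log2 fold change of 1.51 against 0.15 over all genes. Thrsp, a hormone-induced gene of lipid synthesis, went from 0.429 ± 0.607 (SD, n = 2) to 51.6 ± 8.75 (SD, n = 3) (2 reads at E13.5, adjusted p = 3.8e-08), Hr, a corepressor of the receptor, from 5.23 ± 4.36 (SD, n = 2) to 191 ± 11.8 (SD, n = 3) (log2 fold change 5.58, adjusted p = 3.5e-09), and Klf9, a classical target in neurons, from 15.2 ± 5.81 (SD, n = 2) to 184 ± 18.2 (SD, n = 3) (log2 fold change 3.66, adjusted p = 3e-10). In culture from DIV0 to DIV28, Hr and Klf9 were called higher too (log2 fold change 5.29, adjusted p = 0.00013, and log2 fold change 4.02, adjusted p = 1.6e-05), while Thrsp reached 2.44 ± 2.97 (SD, n = 3) and lay lower than at P21 (log2 fold change -4.49, adjusted p = 6.5e-06). The culture rises of Hr and Klf9 were lost with the retitled library grouped as DIV0.

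Hormone supply genes moved unevenly. Of 6 tested from E13.5 to P21, 2 were called higher and 3 lower, with a median of -1.27. Dio2, which makes the active hormone, was 1.29 ± 1.82 (SD, n = 2) at E13.5 and 17.2 ± 6.91 (SD, n = 3) at P21 (log2 fold change 3.41, adjusted p = 0.00032), and was no longer called without E13.5 replicate 1 or without P21 replicate 3. The transporters Slc7a5 (log2 fold change -5.45, adjusted p = 9.5e-12) and Slco1c1 (log2 fold change -5.38, adjusted p = 2.4e-09), both known from brain vessels, fell, and endothelial markers moved over the same interval by the sums given above. Dio3, which inactivates the hormone, had 0 reads at P21 and at DIV28.

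The lists around the estrogen-related receptors did not move as one. Of 14 tested metabolic targets, 1 was called higher and 7 lower from E13.5 to P21 (median -1.01), led by Cox5b, a cytochrome oxidase subunit (925 ± 26.4 (SD, n = 2) to 111 ± 20.9 (SD, n = 3), log2 fold change -2.91, adjusted p = 2.7e-10), Gabpa (log2 fold change -1.93, adjusted p = 1.3e-07) and Cycs, cytochrome c (log2 fold change -1.85, adjusted p = 6.8e-07), while 2 of 14 were called higher and 0 lower from DIV0 to DIV28. Neuronal genes known to depend on PGC-1alpha had 3 of 5 called higher and 1 lower in vivo (median 3.12) and 4 of 5 higher in culture (median 5.06). Among them Nefh, the heavy neurofilament, went from 375 ± 192 (SD, n = 2) to 4376 ± 268 (SD, n = 3) (log2 fold change 3.71, adjusted p = 9e-08), Syt2, a synaptotagmin of fast synapses, from 146 ± 89.3 (SD, n = 2) to 1109.6 ± 52.4 (SD, n = 3) (log2 fold change 3.12, adjusted p = 1.1e-08) and Phyhip from 3.5 ± 2.33 (SD, n = 2) to 84.7 ± 12.1 (SD, n = 3) (log2 fold change 4.52, adjusted p = 2.4e-08). Coregulators had 3 of 9 called higher and 0 lower (among them Ncoa1 at 2.26 and Ppargc1b at 1.97, log2).

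Clock genes and others with ROR elements had 10 of 14 called higher and 2 lower in vivo (median 1.63), with Nr1d2 at 48.4 ± 5.98 (SD, n = 2) and 355 ± 45.2 (SD, n = 3) (log2 fold change 3.04, adjusted p = 7.6e-10) and the REV-ERB gene Nr1d1 at 9.19 ± 2.68 (SD, n = 2) and 61.9 ± 6.83 (SD, n = 3) (log2 fold change 2.95, adjusted p = 3.7e-07), while the repressor Cry1 fell (log2 fold change -2.97, adjusted p = 3.5e-07). From DIV0 to DIV28, 2 of 13 were called higher and 0 lower (median 0.03), and from P21 to DIV28, 1 of 15 was higher and 6 lower. The hour of collection is not given in the sources used here. With TTX the one called gene of this list, also counted among the hormone responsive genes, was Dbp, a clock output factor that rose (log2 fold change 1.43, adjusted p = 0.11) and that was singled out after its values were seen.

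Of the retinoid genes tested from E13.5 to P21, 0 of 12 were called higher and 8 lower (median -2.09), and from DIV0 to DIV28, 0 higher and 6 lower (median -2.05). Earlier steps held calls in both directions, with 4 higher and 5 lower from E10.5 to E13.5 and 1 higher and 2 lower from DIV0 to DIV7. Stra6, a retinol importer, went from 803 ± 412 (SD, n = 2) to 0.466 ± 0.808 (SD, n = 3) in vivo (1 read at P21, adjusted p = 1e-09). Crabp2 was 367 ± 126 (SD, n = 2) at E13.5 and 0 in the P21 libraries. A list that pools markers of alpha and of gamma motor neurons had 6 of 8 called higher and 1 lower in vivo (median 2.02). The largest changes were those of Vipr2 (log2 fold change 5.56, adjusted p = 1.2e-09), Htr1d (log2 fold change 5.37, adjusted p = 1.3e-07) and Spp1 (log2 fold change 4.36, adjusted p = 2.5e-08). In culture 3 of 5 were called higher and 1 lower, and with TTX 1 of 5 lower, where 0.683% of all genes were called. As both types are pooled, these counts do not compare alpha with gamma.

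The genes most like each member were read from the correlation of group means of log2(normalised count + 1) over the 11 groups, among 15561 genes. These are descriptions over 11 points that share libraries. Thrb was most like Ttc39a (r = 0.993), A330041J22Rik (0.989) and Klf9 (0.989), the last a thyroid hormone target on the list above. Ppargc1a was most like Rassf5 (0.983), Cacnb2 (0.982) and Gm43606 (0.981), Rora like Gm38085 (0.996), Gm10862 and Gm37814 (both 0.994), and Thra like Map4k5 (0.973), Nucb2 (0.969) and Acot9 (0.968). Esrrg was most like Dab1 (0.965), Epha8 (0.963) and Gtdc1 (0.962), Esrrb like Gabrq (0.972), Cdkl1 (0.965) and Gm48535 (0.963), and Esrra like Slc25a53 (0.916), Repin1 (0.91) and Slc35e2 (0.907). Rorb was most like C1qtnf4 (0.955), Dpf3 (0.954) and Trps1 (0.952), and Rxrg like Map3k7 (0.969), B130024G19Rik (0.959) and Tube1 (0.944).

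Ordered by level over the 11 groups, most neighbouring groups of a member overlapped in their libraries. Of 10 neighbour pairs, 9 overlapped for Esrra and Rorb, 8 for Ppargc1a and Thra, 7 for Rora, 6 for Esrrb, Esrrg and Rxrg, and 5 for Thrb. The top groups were P21 for Thrb and Rora, P56 for Ppargc1a, P4 for Esrrb, P13 for Rorb, E10.5 for Esrra, DIV0 for Esrrg and Rxrg, and DIV28 with TTX for Thra. The first and second groups did not overlap for Thrb, Esrrb, Esrrg and Rxrg.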

How the data were processed

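RNA-seq (28 libraries) and ATAC-seq (22 libraries) of mouse motor neurons and of motor neurons grown from stem cells were used as deposited. The authors trimmed RNA reads with Trim Galore, aligned them to mm10 with STAR 2.5.2b and deposited RSEM 1.3.0 expected counts and TPM per gene, counted without a strand setting although the kit keeps strand. For ATAC-seq the authors aligned reads with BWA and called peaks in each library with MACS2 2.2.7.1 at p 0.01, and the deposited peak lists give fold enrichment (a ratio over background) and the −log10 p-value of each peak.

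Expected counts were rounded to whole numbers. Levels were divided by median-of-ratios size factors over 12835 genes. Tests used edgeR 4.0.16 (R 4.3.3) quasi-likelihood fits with TMM factors, in vivo (18 libraries), in culture (10) and jointly (25, without TTX), on genes of at least 5 CPM in all libraries of 1 group. A call needed an unadjusted p under 0.001 and 2-fold. The adjusted p is Benjamini-Hochberg over all genes of a fit. The p-values weigh a difference against the spread between replicates. That spread was estimated over all groups of a fit and shared in part across genes, so groups outside a comparison also enter it. A group without reads was set to a floor of 3 counts. Alternatives were DESeq2 1.42.0, other factors, an adjusted limit of 0.05, no filter, only the compared groups, a replicate block and each library left out, and the code was tested on simulated data. Replicate numbers pair DIV28 with DIV28 TTX, which the study grew in parallel: same-numbered libraries deviated together from their group means (r = 0.582, 0.505 and 0.665).

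ATAC libraries were cut to the 80386 highest peaks, the number in the smallest list, and merged by overlap (319335 regions). The lowest −log10 p kept ran from 2 in an E10.5 library to 23.3 in a DIV28 library. Promoter sequences are from RefSeq and regions from GRCm38.p6, with GENCODE vM21 genes. Named genes are the 9 members, the 3 genes most correlated with each, per list the 3 genes of largest change among those called from E13.5 to P21, and partners of the members (Nr1d1, Ppargc1b, Rxra, Rxrb, Dio2 and Dio3 among them). Some genes that this rule takes are not reported here. The members and lists were chosen with earlier results of these data known. Depth limits counts near 0, and ATAC depth is unknown.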

Additional observations from a re-analysis of the deposited data

Results flagged for a closer look

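For 5 members the change in culture from DIV0 to DIV28 differed from the change in vivo from E13.5 to P21, by the test of the difference itself in edgeR's fit of 25 libraries. The log2 difference was -2.17 for Esrra, -3.90 for Esrrg, -1.15 for Rora, -4.32 for Rorb and -5.70 for Rxrg, each lower in culture. The call of Rora was fragile, since it held in 7 of 16 alternatives, among them 4 of 10 fits without 1 library. Among all genes tested, 17.5% were called lower in culture by this difference. Thra differed in the other direction (log2 difference 1.66, adjusted p = 0.0034) without reaching the limit, which it passed under 6 alternatives at 1.56 to 1.98, and Thrb gave no interpretable difference because it had no counts at DIV0.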

How the results depend on the processing

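Counts of called members stayed within 1.5 times of the reported ones except in the following cases. From E10.5 to E13.5, where 4 members were called, no filter on low counts gave 7 and fitting only the compared groups gave 2. From DIV7 to DIV28, where 1 was called, an adjusted limit, no filter, DESeq2 and only the compared groups each gave 2. From E13.5 to DIV0, where 1 was called, an adjusted limit gave 5, no filter 3, DESeq2 3 and the replicate block 2. Grouping the library titled DIV0 replicate 3 with DIV0 gave 0 from DIV0 to DIV7, 0 from DIV7 to DIV28, 0 from DIV0 to DIV28, 3 from P21 to DIV28 and 3 for the difference between culture and animal. The cause of these changes was not tested, beyond the larger or smaller sets of genes and samples that the settings use by construction.

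Leaving out 1 library at a time gave 4 to 5 called members from E10.5 to E13.5, 5 to 6 from E13.5 to P4, 0 to 1 from P4 to P13, 0 to 0 in each of the 3 steps after P13, 4 to 5 from E13.5 to P21, 2 to 2 from DIV0 to DIV7, 0 to 1 from DIV7 to DIV28, 3 to 5 from DIV0 to DIV28, 0 to 0 with TTX, 5 to 6 from P21 to DIV28, 1 to 2 from E13.5 to DIV0 and 4 to 5 for the difference. Of 206 values of called member changes without 1 library, 173 kept their call and 33 lost it, and none reversed. Signs reversed for values that were not called. The log2 difference of Esrrb ran from -2.27 to 0.42, the latter without DIV0 replicate 1, and that of Ppargc1a from -1.61 to 0.16, also without DIV0 replicate 1. From E13.5 to DIV0, Ppargc1a was -0.07 without E13.5 replicate 2 and -0.31 without DIV0 replicate 1, against as much as 1.47 without another library, and Rorb ran from -0.04 to 1.07, the former without DIV0 replicate 2. With the library as titled, Thrb gave -0.17 from DIV0 to DIV7, 3.2 from E13.5 to DIV0 and -5.10 for the difference, since it then has counts at DIV0.

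Taken from mean TPM in place of mean normalised counts, the log2 change from E13.5 to P21 was 1.54 for Esrra (2.11 from normalised counts), -1.25 for Thra (-0.91), 4.29 for Thrb (6.00), 2.30 for Rora (2.73), 0.25 for Rorb (0.90) and -1.36 for Rxrg (-0.96), and within the spread between replicates for Esrrb, Esrrg and Ppargc1a.

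The replicate block changed no call between DIV28 and DIV28 TTX, where Ppargc1a had -1.02 (adjusted p = 0.19) with the block. In the other comparisons the libraries share only a number, and the block added Rorb from DIV0 to DIV28 (-4.22) and Esrrg from E13.5 to DIV0 (1.42), and ended Esrrg from E13.5 to P4 (1.33) and Ppargc1a from DIV0 to DIV28 (1.89). Median-of-ratios factors shifted the median of all genes by 0.11 from E10.5 to E13.5 and by -0.11 from E13.5 to P4 on the log2 scale. The median number of member peaks per ATAC library was 94 to 95 without 1 library and 206 with all deposited peaks. The regions gained in the adult numbered 12, and 22 with all peaks, 7 at a −log10 p of at least 5, 19 with 50 kb windows and 12 to 15 without 1 library. ATAC depth is unknown, and Thrb and Rxrg cannot be ranked among groups at or under the floor of 3 counts.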
